A study of Mus musculus with 48 samples.

Results

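The difference between APP/PS1 and WT mice was compared between the cortex and the hippocampus of the same animals, all treated with MSX-3. Every array of an MSX-3 mouse on which the scanner software had located the spot grid was used, which gave 23 of the 48 arrays of the series, 11 from the cortex and 12 from the hippocampus of 12 mice. The quantity of interest was the APP/PS1 minus WT difference in the cortex minus the same difference in the hippocampus, called the tissue contrast below. A tissue contrast above 0 means that the APP/PS1 to WT ratio was larger in the cortex. RNA was hybridised to one-colour Agilent arrays, and each level is given as the log2 intensity minus the log2 75th percentile of the array's own non-control spots.

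APP/PS1 mice were heterozygous males of the APPswe/PS1dE9 line on a C57Bl6/J background, and WT mice were their littermates. Both transgenes are driven by the mouse prion protein promoter. MSX-3, from which the body releases the A2AR blocker MSX-2, was dissolved in the drinking water at 0.3 g/L. Dosing began at 3 months of age by the sample labels and the methods of the study, and at 4 months by the text on the series, and lasted until 9 to 10 months. The arrays came from 6 APP/PS1 cortices, 5 WT cortices, 6 APP/PS1 hippocampi and 6 WT hippocampi. A comparison near the end also used 23 arrays of mice of both genotypes that drank water without MSX-3. Of the water arrays, that from the cortex of WT mouse 310 was left out because its grid was not located. Mice were caged by genotype, 5 to 6 per cage, and were perfused before dissection, and both tissues were taken from 1 hemisphere. Cage and genotype therefore cannot be told apart.

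The brain of APP/PS1 mice fills with amyloid plaques, and plaques are surrounded by microglia, the resident macrophages of the brain, and by astrocytes with thickened processes. Microglia next to plaques raise receptors for lipids and debris such as Trem2, lysosomal enzymes and chemokines, while reactive astrocytes raise the filament protein Gfap. Astrocytes of the hippocampus carry more Gfap than those of the cortex in the healthy brain, so the starting level of an astrocyte gene differs between the tissues. In bulk tissue, a change in the number of cells of a type and a change in the RNA per cell cannot be told apart.

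The 75th percentile of the 23 arrays ranged from 535 to 950, and 55.8% to 75.5% of their spots were well above background. The array left out, from the cortex of WT mouse 298, had a 75th percentile of 2.77 and 11.4% of spots well above background. The tissue labels held in all mice. The 6 cortical markers measured, among them the transcription factor gene Cux2, had a mean level of 1.14 to 1.43 on the cortex arrays and −1.03 to −0.12 on the hippocampus arrays. The 8 hippocampal markers, among them Prox1 of the dentate gyrus, ranged from 0.47 to 0.90 in the hippocampus and from −3.69 to −3.21 in the cortex. Prnp, whose probe also reads the transgene transcripts if they carry that part of the vector, had a level of 7.12 to 7.56 on all 12 APP/PS1 arrays and of 5.12 to 5.58 on all 11 WT arrays, so that the genotypes were apart. All 6 APP/PS1 cortex arrays were scanned on the first of 2 scan days, as were 3 of the 5 WT cortex arrays and 4 of the 6 hippocampus arrays of each genotype. The APP/PS1 cortex arrays were on slides 1, 3, 4 and 5 and the WT cortex arrays on slides 2, 6 and 7, so that within the cortex slide and genotype cannot be told apart. Slides 3, 4 and 7 held hippocampus arrays of both genotypes.

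The called tissue contrasts lay almost wholly on 1 side of 0. A probe was called when its limma adjusted p, from a fit with the mouse as a random block and Benjamini-Hochberg adjustment, was under 0.05 and its contrast was at least 1.5-fold. Of 38079 probes tested, 99 were called (0.26%), 98 of them above 0 (0.257%) and 1 below (0.00263%). The 98 probes included 95 with a gene name, which stood for 84 genes, and their median tissue contrast was 0.96. Without the fold minimum, 9.29% of all probes had an unadjusted p under 0.05. The median over all probes was −0.02, and 47.5% of all contrasts were above 0. With 1 probe per gene, the brightest, 75 of 16799 genes were called (0.446%), 54.9% were above 0 and the median was 0.03, which is the background for the gene lists below.

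The number of calls depended on the arrays and on the terms of the fit. With the mouse as a fixed block, which uses only the pairing within mice, 47 probes were called (42 above and 5 below 0), of which 38 were among the 99. Of the 21 genes named below as called, this fit did not call Pik3cg, Gm31740, H2-Oa, Gpnmb and Siglecf (adjusted p = 0.058 to 0.15). With the slide as a fixed term, 18 probes were called, all above 0, of which 14 were among the 99. No slide held cortex arrays of both genotypes. The slide fit therefore links the cortex genotypes only through hippocampus arrays and takes a slide's effect as equal in both tissues. In the slide fit C4b, Gfap, Slc14a1, Ccl6, Tyrobp, Trem2 and Cd68 remained called. The other 14 of the 21 genes had contrasts of 0.77 to 2.41 with limma adjusted p-values of 0.0534 to 0.727. Among these 14 were Clec7a, Ccl4, C4a, Lgals3, Gpr84, Tlr2, Cd9, Ptpn6 and Cyba. Itgax (2.88) and Cxcl10 (4.27), which were not among the 99, were called in the slide fit (limma adjusted p = 0.0205 for each). On the arrays of the first scan day alone, 74 probes were called, 67 of them above 0, and 62 were shared with the 99. Leaving out mouse 281 gave 58 calls, mouse 303 gave 61, mouse 49 or mouse 77 gave 64, and mouse 266 gave 65.

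The called genes rose in both tissues more often than in the cortex alone. Comparing APP/PS1 with WT mice within each tissue, limma called 556 cortical (1.46%) and 143 hippocampal probes (0.376%). The cortex calls were 524 higher (1.38%) and 32 lower (0.084%) in APP/PS1 mice, and the hippocampus calls were 140 higher (0.368%) and 3 lower (0.00788%). Of the 98 probes with a called tissue contrast above 0, 97 were also called higher in the cortex and 54 were also called higher in the hippocampus. For 93 of the 98 the APP/PS1 mean was the higher in both tissues, and none of the other 5 was called lower in the hippocampus. These counts share arrays with the contrast and describe its composition.

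**Figure D1:**
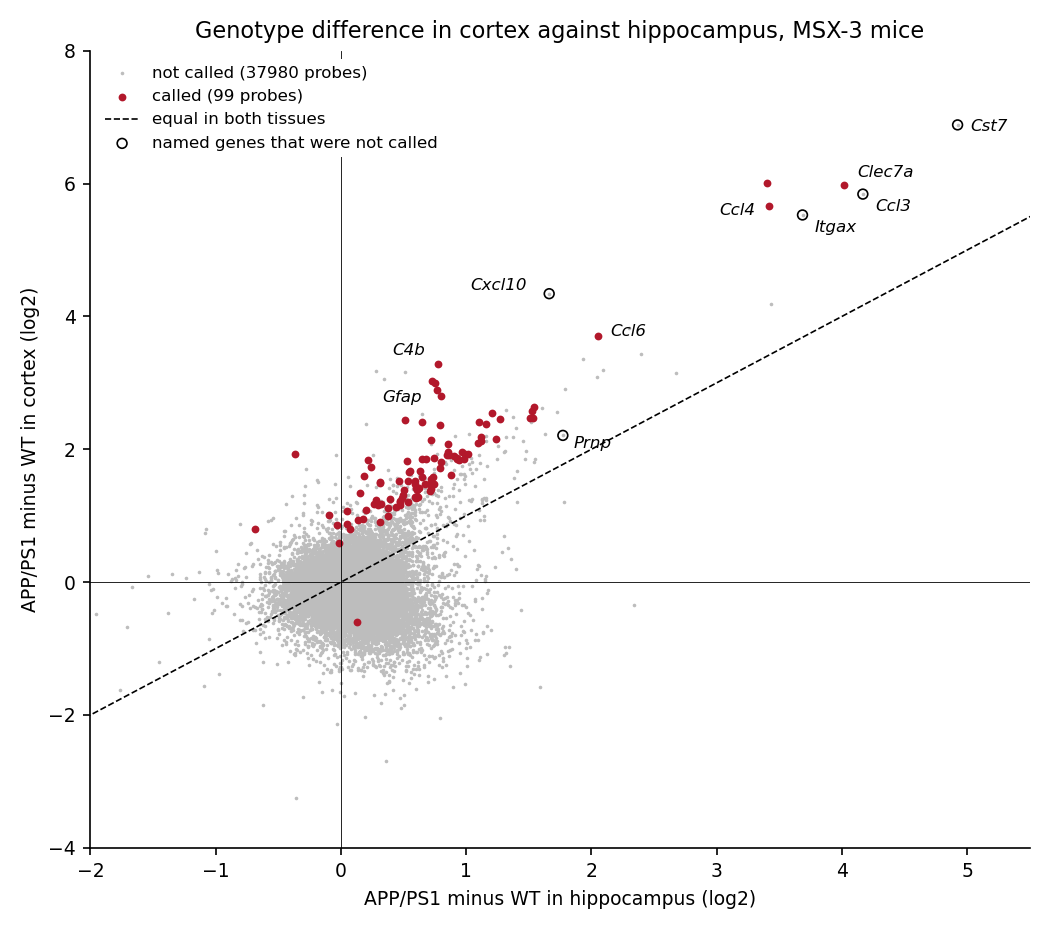
APP/PS1 minus WT difference on the log2 scale in the cortex (vertical axis) against the hippocampus (horizontal axis) for each of 38079 probes, with the 99 probes called for the tissue contrast in red, circles around named genes that were not called and a dashed line where both tissues are equal. Of the called probes, 98 lie above the dashed line and 1 below it, and 93 of the 98 have differences above 0 in both tissues.

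A second description concerns the level from which the genes started. In WT mice, 6625 probes differed between the tissues (17.4%), 3112 higher in the cortex (8.17%) and 3513 higher in the hippocampus (9.23%). In APP/PS1 mice it was 6982 probes (18.3%), 2942 higher in the cortex (7.73%) and 4040 higher in the hippocampus (10.6%). Of the 98 probes, 38 were called higher in the WT hippocampus, 60 were not called and 0 were called higher in the WT cortex. In APP/PS1 mice, 36 of the 98 were called higher in the cortex, 6 were called higher in the hippocampus and 56 were not called. The tissue contrast is also the cortex minus hippocampus difference of APP/PS1 mice minus that of WT mice. Choosing probes for a contrast above 0 therefore favours low WT and high APP/PS1 differences. These counts describe the composition of the contrast and are not a separate result. The genes described below include some whose hippocampal excess in WT mice was smaller in APP/PS1 mice, and others, not called between the WT tissues, that lay higher in the APP/PS1 cortex.

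C4b, a complement component that is raised in reactive astrocytes, had the largest called tissue contrast when each gene was represented by its brightest probe. Its log2 level was lowest at 0.35, with a median of 0.45 and a highest value of 0.70, in the WT cortex. It was 3.57, 3.72 and 4.14 (lowest, median, highest) in the APP/PS1 cortex, 2.71, 2.87 and 3.14 in the WT hippocampus, and 3.51, 3.63 and 3.94 in the APP/PS1 hippocampus. In WT mice C4b was thus far lower in the cortex, and in APP/PS1 mice the ranges of the tissues overlapped. APP/PS1 mice were 9.78-fold higher in the cortex and 1.71-fold higher in the hippocampus, and the tissue contrast was 2.51 ± 0.15 (SE, limma adjusted p = 1.99e-09; 95% interval 2.21 to 2.82). Within single mice, the cortex minus hippocampus difference lay between −2.69 and −2.24 in the 5 WT mice and between −0.36 and 0.56 in the 6 APP/PS1 mice. A second C4b probe gave a contrast of 2.29. The probe of C4a (2.12 ± 0.34, adjusted p = 0.00309) belongs to a close copy of C4b, so that the signals of these genes may be shared.

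Gfap, the intermediate filament protein of astrocytes, followed the same course without reaching the hippocampal level. Its level was −0.22, −0.01 and 0.40 (lowest, median, highest) in the WT cortex and 2.38, 2.84 and 3.22 in the APP/PS1 cortex. Hippocampal values were 2.59, 2.68 and 2.84 in WT and 3.33, 3.48 and 3.77 in APP/PS1 mice. Gfap of the APP/PS1 cortex therefore lay around the level of the WT hippocampus, with the ranges overlapping, and stayed below every APP/PS1 hippocampus array. The increase was 6.96-fold in the cortex and 1.74-fold in the hippocampus, with a tissue contrast of 2.0 ± 0.17 (SE, limma adjusted p = 8.66e-07). The hippocampal excess of Gfap was 2.68 in WT and 0.68 in APP/PS1 mice on the log2 scale.

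Slc14a1, a urea transporter found in astrocytes, was called for genotype in the cortex and not in the hippocampus. Its level was −2.01, −1.78 and −1.62 in the WT cortex and −0.52, −0.16 and −0.11 in the APP/PS1 cortex, so that the genotypes did not overlap. Hippocampal values were 0.01, 0.12 and 0.38 in WT and 0.16, 0.28 and 0.55 in APP/PS1 mice, which overlapped. APP/PS1 mice were 3.01-fold higher in the cortex and 1.13-fold higher in the hippocampus (limma adjusted p = 0.967), and the tissue contrast was 1.41 ± 0.12 (adjusted p = 1.14e-06). A WT excess in the hippocampus was also measured for 2 genes of phagocytes. Lgals3, which encodes galectin-3, had a contrast of 1.75 ± 0.28 (adjusted p = 0.00389), with 4 of the 5 WT cortex arrays above background, and Gpnmb, a lysosomal glycoprotein, one of 1.18 ± 0.23 (adjusted p = 0.0258). The Gpnmb call was lost in 15 of 28 alternative settings, among them the fixed mouse block (adjusted p = 0.058). Neither Lgals3 nor Gpnmb was called for genotype in the hippocampus (adjusted p = 0.446 and 0.967).

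**Figure D2:**
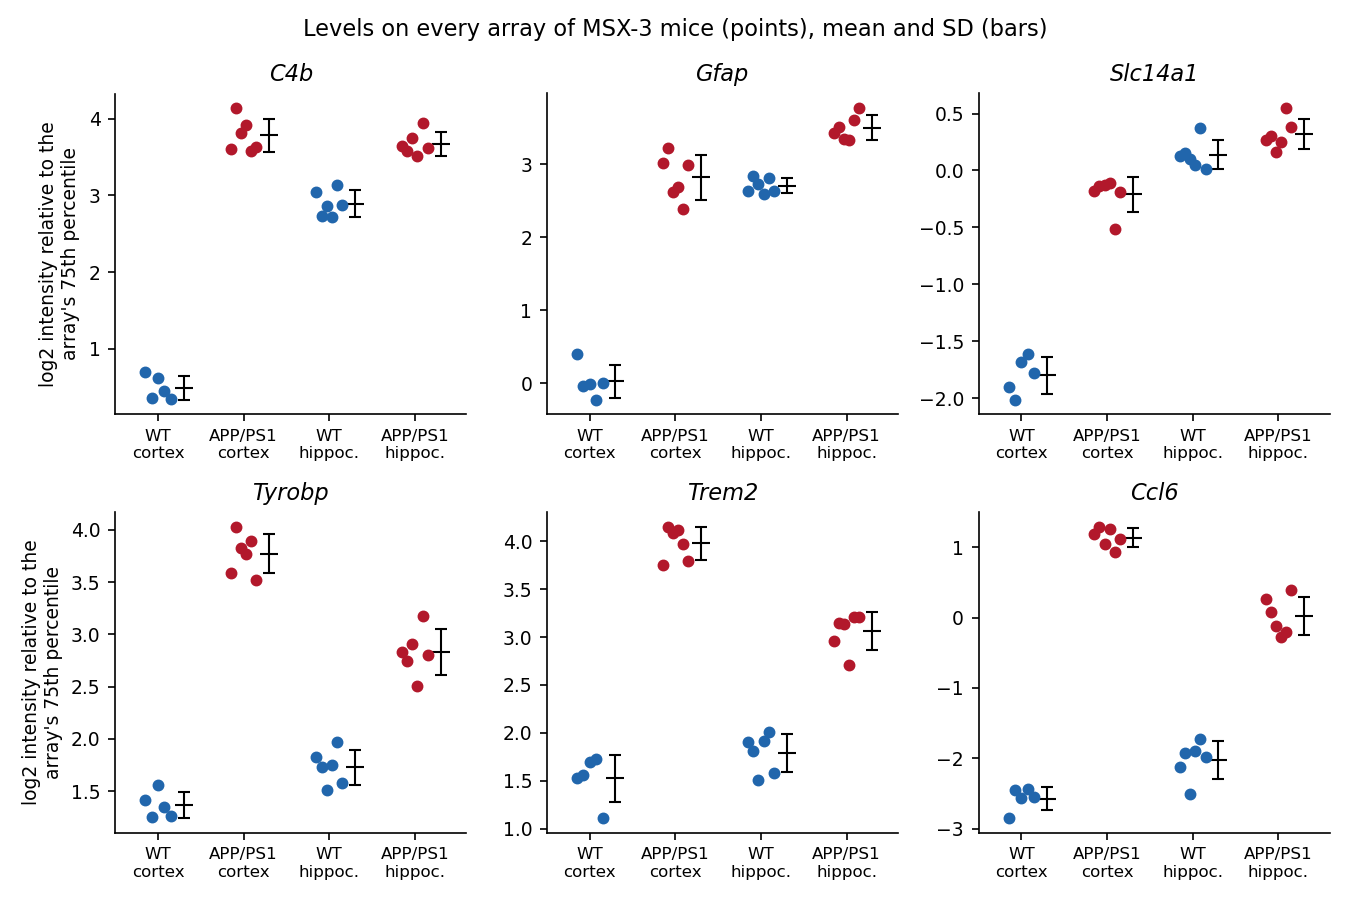
Log2 intensity relative to the 75th percentile of the array (vertical axes) for C4b, Gfap, Slc14a1, Tyrobp, Trem2 and Ccl6, with 1 point per array of the 23 and the group mean and SD as bars, by genotype and tissue. In the upper row the WT cortex lies far below the WT hippocampus, and in the lower row the APP/PS1 cortex lies above the APP/PS1 hippocampus.

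The size of a contrast depends on the scale when starting levels differ. In place of log2 levels, the intensity was divided by the array's 75th percentile, a comparison added after the values were seen. On this linear scale, the APP/PS1 minus WT rise was larger in the cortex for all 98 probes, by a median ratio of 2.62 over those that rose in the hippocampus. For Gfap the mean rise was 6.18 units in the cortex and 4.85 units in the hippocampus, a ratio of 1.27. In an exact two-sided permutation test of the mouse differences (6 APP/PS1 and 5 WT mice, smallest possible p = 0.00216), the linear contrast of Gfap was 1.43 ± 0.81 (SE) with p = 0.143. These Gfap values are those of its brightest probe. Another called Gfap probe had a linear contrast of 1.73 ± 0.45 (SE) and a ratio of the rises of 1.70, and was not put to the permutation test. The 21 called genes had been chosen for their contrast in these same mice, so the test is not separate support for them. It differs from limma in more than the scale and was not run on log2 levels. Its p-values therefore do not isolate the effect of the scale. The largest exact permutation p-values were for Gfap, C4a (p = 0.0779), Lgals3 (p = 0.102) and the predicted gene Gm31740 (p = 0.545). On the linear scale the ratio of the rises was 1.91 for C4a, 1.78 for Lgals3 and 1.21 for Gm31740. On the log2 scale, the mouse differences of the genotypes did not overlap for any of these 4 genes. All of these 4 were higher in the hippocampus of WT mice, whereas the linear contrast of C4b, also of that kind, was 7.31 ± 1.36 (exact permutation p = 0.00433).

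Trem2 and its partner Tyrobp showed the other pattern. TREM2 is a lipid receptor of microglia that signals through the adaptor TYROBP. The Trem2 level was 1.11, 1.56 and 1.73 (lowest, median, highest) in the WT cortex and 1.51, 1.85 and 2.01 in the WT hippocampus, and these ranges overlapped. In APP/PS1 mice it was 3.75, 4.02 and 4.15 in the cortex and 2.71, 3.14 and 3.21 in the hippocampus, where every cortex array lay above every hippocampus array. Trem2 was 5.46-fold higher in the APP/PS1 cortex and 2.42-fold higher in the APP/PS1 hippocampus, with a tissue contrast of 1.18 ± 0.16 (SE, limma adjusted p = 0.000647).

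Tyrobp had levels of 1.25, 1.35 and 1.56 in the WT cortex and 3.53, 3.80 and 4.03 in the APP/PS1 cortex. The hippocampal levels were 1.51, 1.74 and 1.97 in WT and 2.51, 2.82 and 3.18 in APP/PS1 mice. The genotypes did not overlap in either tissue, and within APP/PS1 mice the cortex lay above the hippocampus in 6 of 6 animals, by 0.71 to 1.29. Tyrobp was 5.3-fold higher in the cortex and 2.15-fold higher in the hippocampus of APP/PS1 mice, and the tissue contrast was 1.30 ± 0.15 (adjusted p = 5.8e-05). Among genes of signalling enzymes, Ptpn6, which encodes the phosphatase SHP-1, had a contrast of 1.13 ± 0.14 (adjusted p = 0.000239). That of Pik3cg, a catalytic subunit of phosphoinositide 3-kinase, was 1.62 ± 0.34 (adjusted p = 0.0396). Pik3cg was above background on 1 of 5 WT cortex arrays and lost its call in 19 alternative settings, so that its value is the least certain of the named genes together with that of the lectin gene Siglecf (1.17 ± 0.24, adjusted p = 0.0348).

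Clec7a, which encodes the fungal sugar receptor dectin-1 and marks microglia at plaques, was among the genes with the largest genotype differences in both tissues. It was 0.36, 0.55 and 0.90 in the APP/PS1 cortex and −1.0, −0.62 and −0.29 in the APP/PS1 hippocampus, without overlap. In WT mice it was −6.31, −5.62 and −4.44 in the cortex, where 3 of 5 arrays were above background, and −5.36, −4.39 and −4.16 in the hippocampus. The genotype difference was 62.9-fold in the cortex and 16.2-fold in the hippocampus, and the tissue contrast 1.95 ± 0.32 (limma adjusted p = 0.00389). Because the WT signal was near background, these folds rest on dim spots.

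Among chemokines, which attract leukocytes and microglia, Ccl6 and Ccl4 were called out of 17 measured genes of chemokines and their receptors. Ccl6 was −2.85, −2.55 and −2.44 in the WT cortex and 0.93, 1.15 and 1.29 in the APP/PS1 cortex. It was −2.51, −1.96 and −1.72 in the WT hippocampus and −0.27, −0.02 and 0.39 in the APP/PS1 hippocampus. The genotypes were apart in both tissues, 13-fold in the cortex and 4.14-fold in the hippocampus, and the tissue contrast of Ccl6 was 1.66 ± 0.17 (limma adjusted p = 1.78e-05). Ccl4 had a contrast of 2.24 ± 0.38 (adjusted p = 0.00605) with 1 of 5 WT cortex arrays above background, and on the first scan day alone it was 1.89 and not called (adjusted p = 0.204). A second, dimmer Ccl4 probe, also above background on 1 of 5 WT cortex arrays, had a contrast of 2.61 ± 0.41 (adjusted p = 0.00294). The large contrasts of Cxcl10 (2.68 ± 0.63, adjusted p = 0.0974) and Ccl3 (1.67 ± 0.39, adjusted p = 0.0859) were not called with all 12 mice, and both were called without mouse 49 (adjusted p = 0.00364 and 0.000304). The same held for Cst7, a protease inhibitor of plaque microglia (1.96 ± 0.44, adjusted p = 0.0747, and 0.00714 without mouse 49). Of 27 alternative settings, 3 called Cxcl10, 2 called Ccl3 and 4 called Cst7. None of these genes was called with the mouse as a fixed block (limma adjusted p = 0.217 to 0.276). On the first scan day alone none was called either (limma adjusted p = 0.242 to 0.495).

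Lysosomal genes, whose products digest what a phagocyte takes up, had smaller contrasts. All 23 measured had a contrast above 0, 7 were called, and the median was 0.42. Cd68, a lysosomal membrane protein of phagocytes, was −0.36, −0.26 and −0.14 in the WT cortex and −0.36, −0.11 and 0.03 in the WT hippocampus, which overlapped. It was 1.75, 1.92 and 2.05 in the APP/PS1 cortex and 0.89, 1.10 and 1.28 in the APP/PS1 hippocampus, which did not. Its tissue contrast was 0.91 ± 0.12 (limma adjusted p = 0.000239). Among the other called members were the cathepsins Ctss (0.83), Ctsd (0.80), Ctsc (0.75) and Ctsz (0.69) and the glucuronidase Gusb (0.67), all degradative enzymes.

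**Figure D3:**
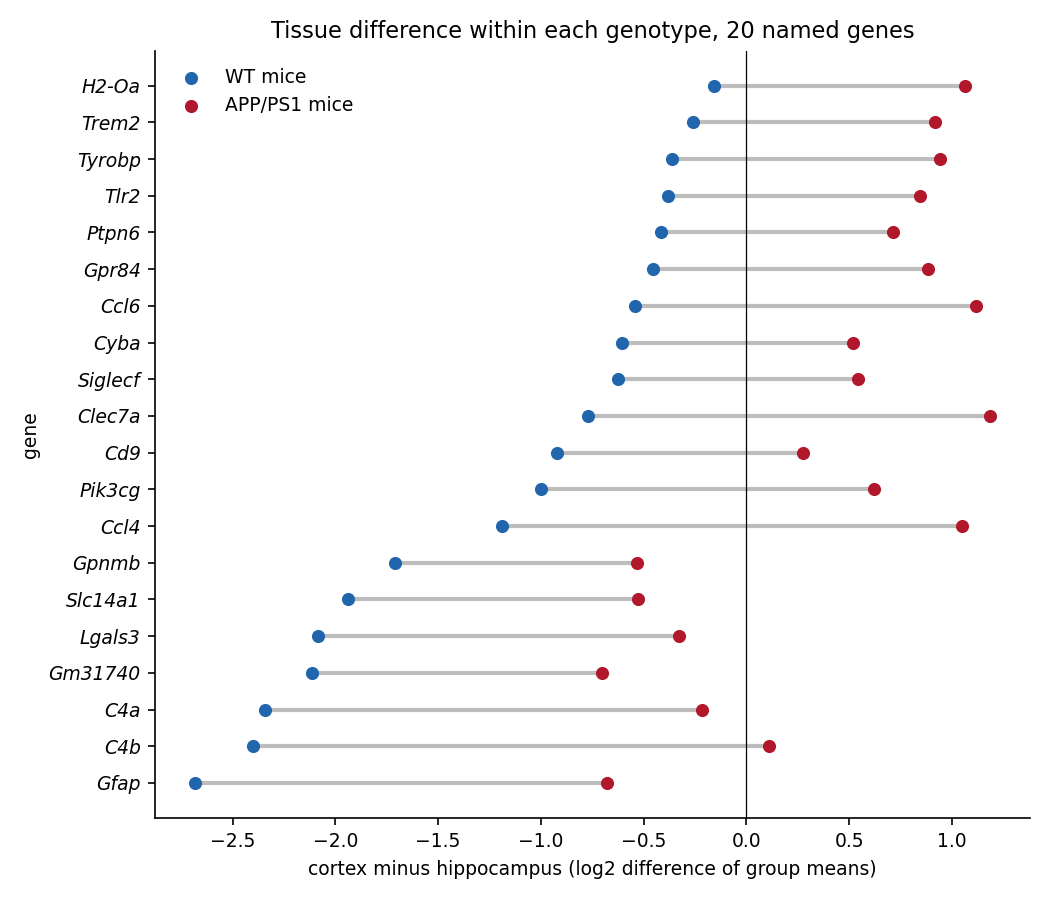
Cortex minus hippocampus difference of the group means on the log2 scale (horizontal axis) in WT (blue) and APP/PS1 mice (red) for the 20 genes with the largest called contrast above 0, sorted by the WT value; the grey line between the points is the tissue contrast. Gfap starts lowest in WT mice (−2.68) and stays below 0 in APP/PS1 mice (−0.68), whereas Trem2 goes from −0.26 to 0.92.

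Among probes measured on all 23 arrays, the within-mouse differences of the genotypes did not overlap for 1.65%, and those of the APP/PS1 mice lay wholly above those of the WT mice for 1.04%. This was so for 87 of the 98 called probes above 0. These probes were called on the same mice, so the count is not separate support for them. Among the 20 genes with the largest contrasts, the mouse differences overlapped for H2-Oa, an MHC class II gene (1.22 ± 0.24, limma adjusted p = 0.0259). The H2-Oa call was lost in 12 of 27 alternative settings, among them the fixed mouse block (adjusted p = 0.15). Of the 98 probes, 86 were above background on all 23 arrays and 2 were not above background on any WT cortex array.

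Of the lists of cell type markers, the one for microglia at plaques had the most called members. Of its 25 genes, 14 were called and 25 had a contrast above 0, with a median of 0.91. These 14 included the tetraspanin Cd9 (1.20 ± 0.14, limma adjusted p = 5.8e-05), the lipase Lpl, the growth factor Igf1 (0.85) and the lysozyme Lyz2 (0.96), whose probe may share signal with its close copy Lyz1. The mean level of the list was 1.82 to 2.06 in the APP/PS1 cortex, 1.22 to 1.45 in the APP/PS1 hippocampus, −0.21 to −0.05 in the WT cortex and 0.01 to 0.35 in the WT hippocampus. Thus the cortex was the lower tissue in WT mice and the higher one in APP/PS1 mice, with no overlap in either genotype. Csf1, a growth factor of microglia, was called by 2 other probes (1.57 and 1.06) and not by its brightest one.

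Markers of resting microglia moved less. Of 16, 14 had a contrast above 0, with a median of 0.50, and 1 was called. Siglech was called by another probe and not by its brightest one. In the cortex alone 8 of the 16 were called higher in APP/PS1 mice and in the hippocampus 0 of 16. The list had a mean level of 1.76 to 1.92 in the APP/PS1 cortex, 1.40 to 1.77 in the APP/PS1 hippocampus, 1.13 to 1.34 in the WT cortex and 1.27 to 1.44 in the WT hippocampus. Innate immune receptors and their signalling proteins had 4 of 21 called, 18 above 0 and a median of 0.33. The 4 were Tlr2, a receptor of bacterial lipoproteins (1.23 ± 0.17, limma adjusted p = 0.00086), its co-receptor Cd14 (0.93), the Fc receptor chain Fcer1g (0.77) and Ly86 (1.0), a partner of a Toll-like receptor homologue.

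Of 15 complement genes, a list without C4a, 3 were called, C4b, C1qa (0.94 ± 0.18, limma adjusted p = 0.0211) and C1qc (0.73 ± 0.13, adjusted p = 0.00873). C1qb, the third chain of C1q, had a contrast of 0.90 ± 0.20 and missed the threshold (adjusted p = 0.0714). The list median was 0.27, with 11 of 15 above 0. C1qa was 2.07, 2.24 and 2.72 in the APP/PS1 cortex and 1.64, 1.81 and 2.30 in the APP/PS1 hippocampus, which overlapped, and it was 0.42, 0.61 and 1.10 in the WT cortex and 1.04, 1.20 and 1.36 in the WT hippocampus.

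Promoters of some called genes are shown because many called genes are known from microglia, in which the transcription factor PU.1 is active. The 250 bases before the RefSeq start (GRCm38.p6) were available for 60 of the 84 called genes and were searched on both strands. The PU.1 sequence GAGGAAGT was found before 8 of the 60 (13.3%), against 2.77% of 13238 tested genes and 2.79% of all 27025 genes with a promoter in the table. None of these matches overlapped a match to another motif searched. For comparison, the AP-1 sequence TGANTCA was before 7 of the 60 (11.7%, against 6.10% of tested genes), the lysosomal CLEAR sequence TCACGTGA before 3 (5.0%, against 1.48%), the STAT sequence TTCNNNGAA before 6 (10.0%, against 7.34%), the interferon response element before 3 (5.0%, against 3.24%) and TATAAA before 5 (8.33%, against 9.83%). A match is a description of letters in this window. The 8 genes with the PU.1 sequence were Bcl2a1d, C1qc, Ctsc, Havcr2, Pik3cg, Samsn1, Sh3bp2 and Vav1. The windows of 4 of them are given 5′ to 3′ on the strand of the gene, with the match in capitals, which reads ACTTCCTC where it lies on the opposite strand. They are C1qc (chr4:136892915-136893164, minus strand, match 195 to 188 bases before the start), Ctsc (chr7:88277835-88278084, plus strand, 151 to 144 bases), Pik3cg (chr12:32208471-32208720, minus strand, 191 to 184 bases) and Vav1 (chr17:57278850-57279099, plus strand, 11 to 4 bases).
C1qc: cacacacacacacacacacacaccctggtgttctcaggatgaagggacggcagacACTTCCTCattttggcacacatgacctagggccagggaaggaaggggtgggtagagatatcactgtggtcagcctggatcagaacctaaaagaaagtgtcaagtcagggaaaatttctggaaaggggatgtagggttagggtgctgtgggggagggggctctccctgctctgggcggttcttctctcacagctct
Ctsc: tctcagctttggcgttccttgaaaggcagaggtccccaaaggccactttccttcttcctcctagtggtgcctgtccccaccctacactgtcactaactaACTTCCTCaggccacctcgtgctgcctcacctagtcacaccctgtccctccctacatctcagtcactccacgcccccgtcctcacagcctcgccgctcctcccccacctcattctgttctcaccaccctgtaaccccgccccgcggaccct
Pik3cg: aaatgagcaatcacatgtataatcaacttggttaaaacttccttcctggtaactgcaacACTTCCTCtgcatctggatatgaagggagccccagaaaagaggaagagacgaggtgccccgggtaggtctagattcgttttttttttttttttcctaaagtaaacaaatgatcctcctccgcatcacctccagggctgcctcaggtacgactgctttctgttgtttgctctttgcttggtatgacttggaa
Vav1: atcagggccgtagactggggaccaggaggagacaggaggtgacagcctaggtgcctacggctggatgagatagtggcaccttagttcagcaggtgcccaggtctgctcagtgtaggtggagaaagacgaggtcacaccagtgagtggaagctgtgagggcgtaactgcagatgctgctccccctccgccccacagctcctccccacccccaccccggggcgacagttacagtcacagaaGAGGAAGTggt

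Of 15 genes of reactive astrocytes, 8 were called higher in the APP/PS1 cortex and 4 in the APP/PS1 hippocampus, with median differences of 0.74 and 0.22. Their tissue contrast was called for C4b and Gfap (13.3%, against 0.446% of all genes), 10 of 15 were above 0 and the median was 0.07. Taken over all probes of each gene the median of the list was 0.37. Serpina3n, a protease inhibitor of reactive astrocytes (0.78 ± 0.22, limma adjusted p = 0.26), and the filament gene Vim (0.57 ± 0.17, adjusted p = 0.301) had the next smallest p-values and were called for genotype in the cortex. General astrocyte markers had 0 of 13 called, 11 above 0 and a median of 0.16, and none of them was called for genotype in either tissue.

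The lists of interferon-stimulated genes and antigen presentation genes had members called in the cortex and none called for the tissue contrast. Of 21 interferon genes, 15 were called higher in the APP/PS1 cortex and 5 in the APP/PS1 hippocampus. Their contrasts had a median of 0.34, 19 of 21 were above 0 and 0 were called, the largest being that of Cxcl10. Ifi204, a DNA sensor, had a contrast of 1.27 ± 0.32 (limma adjusted p = 0.152). Of 16 antigen presentation genes, a list without the called H2-Oa, 10 were called higher in the cortex and 1 in the hippocampus. Their contrasts had a median of 0.36, 15 were above 0 and 0 were called. H2-DMb1, which loads peptides onto MHC class II, came closest (0.77 ± 0.17, adjusted p = 0.0526). A list called in 1 tissue and not in the other is not by itself a difference between the tissues, and the contrast is the test of it.

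**Figure D4:**
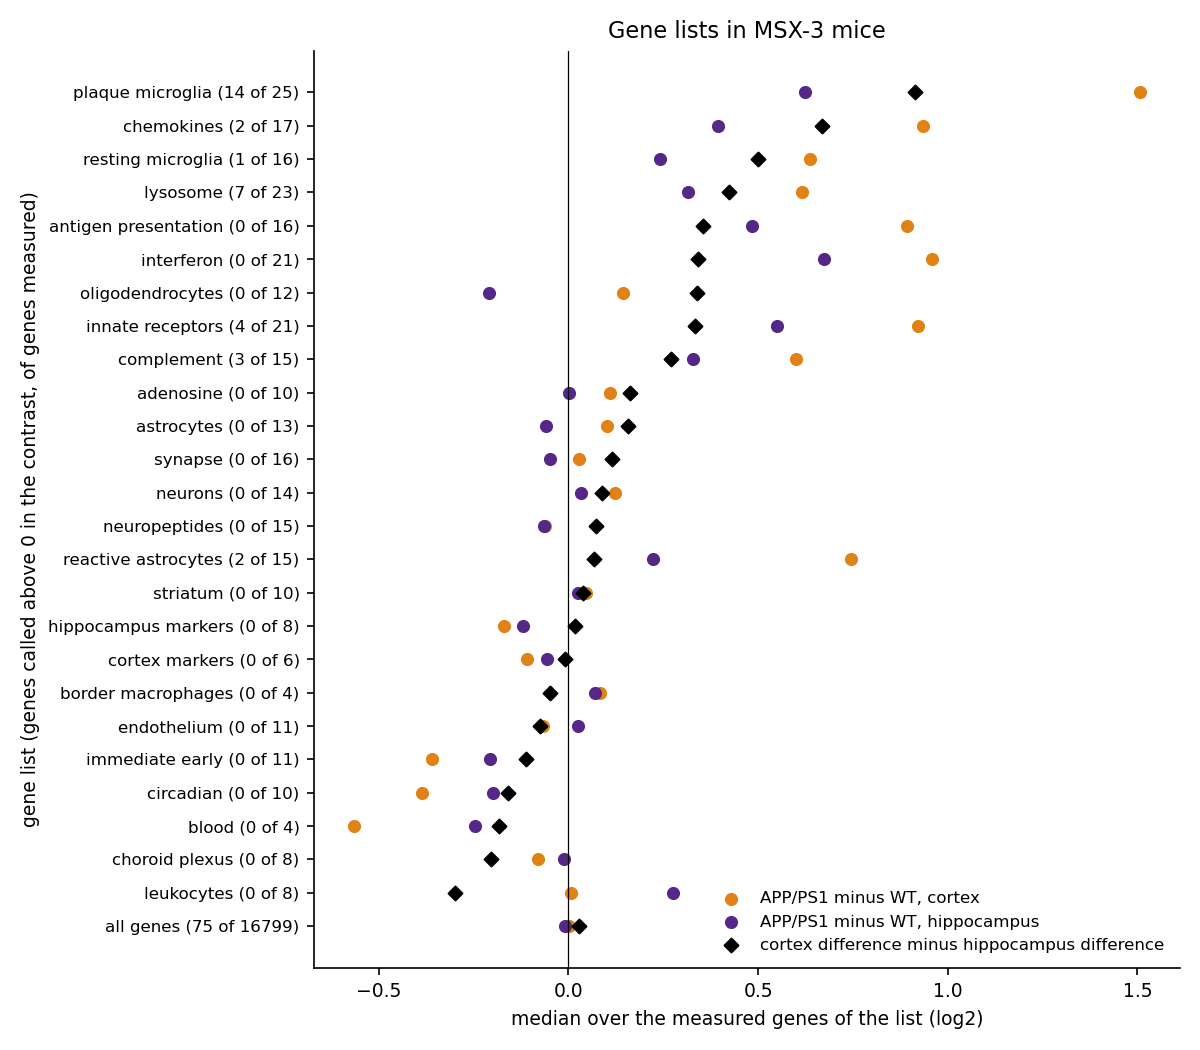
Median difference on the log2 scale (horizontal axis) over the measured genes of each of 25 lists and over all genes (rows, with the number called), for APP/PS1 minus WT in the cortex (orange), in the hippocampus (purple) and their difference (diamonds), which is the median of the contrasts and not the difference of the medians. The diamonds of plaque microglia (0.91), chemokines (0.67) and resting microglia (0.50) lie furthest above that of all genes (0.03).

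Neuronal lists had no called member. Neuron markers had 8 of 14 contrasts above 0 with a median of 0.09, synaptic genes 12 of 16 with a median of 0.11 and neuropeptides 9 of 15 with a median of 0.07. Gria1, a subunit of the AMPA glutamate receptor, had a contrast of 0.20 ± 0.12 (limma adjusted p = 0.553) and Dlg4, which encodes PSD-95, of 0.18 ± 0.14 (adjusted p = 0.609). The intervals of single genes were wide relative to these values, since the median SE of a tissue contrast over all probes was 0.20. Myelin and oligodendrocyte genes had 0 of 12 called, 10 above 0 and a median of 0.34. Mag, a myelin adhesion protein, was at 0.80 ± 0.27 (adjusted p = 0.438).

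Markers of other cells that a dissection can carry along had no called member. Choroid plexus genes had a median contrast of −0.21 with 0 of 8 called, and their mean level varied from −2.65 to 1.88 between APP/PS1 hippocampi and from −2.01 to 1.31 between WT hippocampi. The 4 blood genes had 0 of 4 contrasts above 0 and a median of −0.18, with a mean level of −2.62 to 1.83 in the APP/PS1 hippocampus and −2.69 to 0.75 in the WT hippocampus. In the cortex blood genes ranged from −1.13 to 2.13 in APP/PS1 and from −0.93 to 1.66 in WT mice. Lymphocyte and granulocyte markers had 1 of 8 contrasts above 0 (median −0.30), and markers of border macrophages 1 of 4 (median −0.05), with none called. Endothelial markers had 5 of 11 above 0 (median −0.08), striatal genes 6 of 10 (median 0.04) and immediate early genes 3 of 11 (median −0.11). Circadian genes had 1 of 10 above 0 (median −0.16), and Per2, a clock repressor, was the 1 member called lower in the APP/PS1 cortex (−0.85, limma adjusted p = 0.0145), with a tissue contrast of −0.59 ± 0.25 (adjusted p = 0.533). The part of choroid plexus and blood in the contrasts of other genes was not tested.

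Since all 12 mice had received an A2AR blocker, the genes of adenosine signalling were examined. None of the 10 measured was called for the contrast, 9 were above 0 and the median was 0.16. Adora2a, the receptor that MSX-2 blocks, had levels of −3.28 to −2.48 in the APP/PS1 cortex, −3.20 to −2.37 in the WT cortex, −3.67 to −2.55 in the APP/PS1 hippocampus and −3.60 to −2.82 in the WT hippocampus. All 4 groups overlapped, and its contrast was −0.20 ± 0.24 (limma adjusted p = 0.757; 95% interval −0.71 to 0.30). Adora3, the A3 receptor, which mouse microglia express, was called higher in the APP/PS1 cortex (0.98, adjusted p = 8.8e-06), with a contrast of 0.60 ± 0.15 (adjusted p = 0.159). Entpd1, the ectoenzyme CD39 that degrades ATP, was also called in the cortex (0.68, adjusted p = 0.016), with a contrast of 0.52 ± 0.20 (adjusted p = 0.507). The contrasts of Adora1, Adora2b, Ada, Adk, Nt5e, Slc29a1 and Slc29a2 ranged from 0.01 to 0.42, and none was called.

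The list of genes that the study names from its arrays, PCR and blots was chosen on animals of this study and is not independent evidence. The study named the array genes from its water mice, and its PCR and blots also covered MSX-3 mice. Of its 18 genes 5 were called (Clec7a, Ccl4, Gfap, Cd68 and Tlr2), 17 had a contrast above 0 and the median was 0.79. Itgax, the integrin CD11c, had a contrast of 1.84 ± 0.42 (limma adjusted p = 0.0754), with 1 of 5 WT cortex and 1 of 6 WT hippocampus arrays above background. Of 27 alternative settings, 6 called Itgax, and the fixed mouse block did not (limma adjusted p = 0.175). The 7 neuronal members had contrasts between −0.06 and 0.20. Of the transgene-related probes, App read the mouse gene at 0.02 ± 0.13 (adjusted p = 0.962). Prnp was 4.62-fold higher in the APP/PS1 cortex and 3.42-fold higher in the APP/PS1 hippocampus, and its contrast of 0.44 ± 0.09 (adjusted p = 0.0421) was under the fold minimum. The genotypes did not overlap in either tissue.

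In the other direction, no named probe was called in the fit with the mouse as a random block. The only probe called below 0 had no gene name (−0.74 ± 0.15, limma adjusted p = 0.0375), and it lay 0.61 lower in the APP/PS1 cortex and 0.13 higher in the APP/PS1 hippocampus. The 5 named genes below 0 with the smallest p-values were Cep44 (−0.55, adjusted p = 0.0885), the transcription factor genes Zbtb8b (−0.66, adjusted p = 0.0952) and Dach1 (−0.66, adjusted p = 0.114), the fucosyltransferase Fut2 (adjusted p = 0.114) and the junction protein Jaml (−0.92, adjusted p = 0.132). Fut2 was not above background on any of the 6 APP/PS1 cortex arrays and was above it on all 5 WT cortex arrays, where it was at least 1.2-fold higher. With the mouse as a fixed block Fut2 was called below 0 (limma adjusted p = 0.0394), as it was with array weights (adjusted p = 0.0141), and with the slide as a fixed term it was not (adjusted p = 0.752). Zbtb8b was called without mouse 282 (−0.81, adjusted p = 0.00365).

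Whether the tissue contrast itself differed between MSX-3 and water mice was tested in a fit over all readable arrays, 23 of MSX-3 and 23 of water mice, which share no sample. Of 39065 probes, 0 were called by limma, the smallest adjusted p was 0.561, and 3248 had an unadjusted p under 0.05 (8.31%). A p over the threshold does not show that the contrasts were alike. In water mice alone, 85 of 38634 probes were called (0.22%), 79 above 0 (0.204%) and 6 below (0.0155%). Of the 98 probes called above 0 in MSX-3 mice, 97 could be tested in water mice, 97 were above 0 there and 54 were called, which is 55.1% of the MSX-3 list and 68.4% of the water list. The median contrast of these probes was 0.96 in MSX-3 mice and 0.80 in water mice, where 50.2% of all probes were above 0. The 79 probes called in water mice had a median of 0.94 in MSX-3 mice, and 77 were above 0.

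Single genes stood as follows beside each other. C4b had a contrast of 2.51 in MSX-3 and 2.24 in water mice, Gfap 2.0 in both, Slc14a1 1.41 and 1.36, Tyrobp 1.30 and 1.07, Trem2 1.18 and 1.03, and Clec7a 1.95 and 2.20. By their brightest probes, Ptpn6 (1.13 and 0.62), Cyba, a subunit of the NADPH oxidase (1.13 and 0.81), and Pik3cg (1.62 and 0.45) were called in MSX-3 and not in water mice. A second Ptpn6 probe was called in both (0.93 and 0.83), and the remaining one was at −0.39 in MSX-3 mice and was not called. None of these differences between the treatments passed the test.

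**Figure D5:**
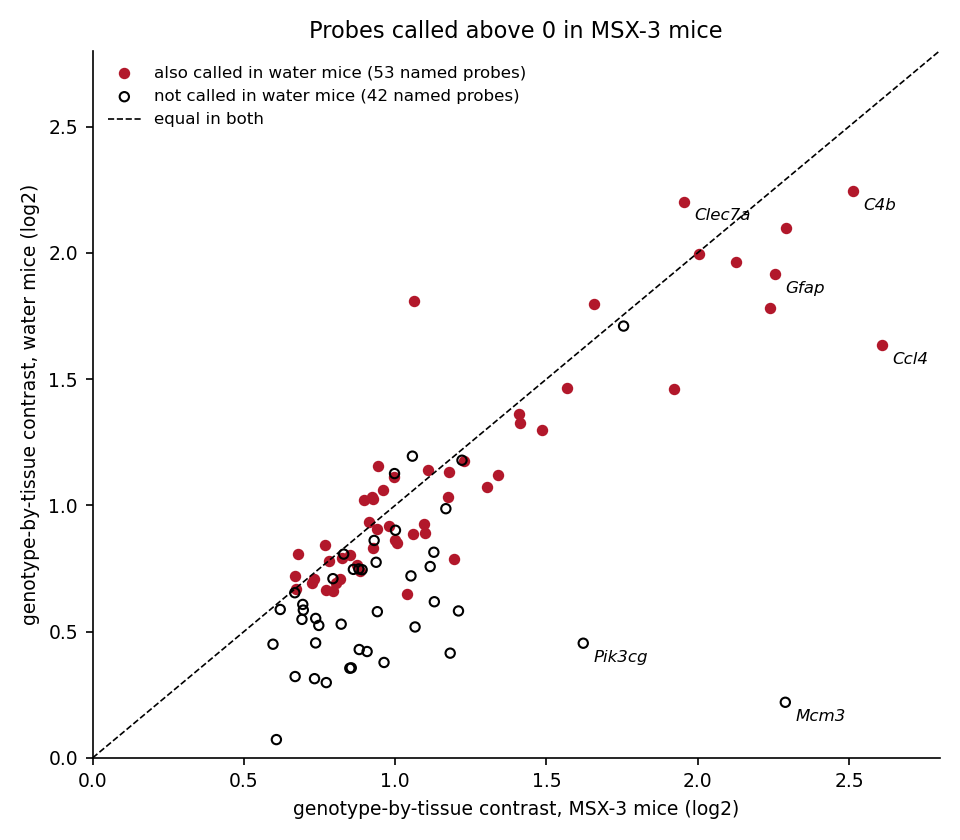
Tissue contrast in water mice (vertical axis) against MSX-3 mice (horizontal axis), both on the log2 scale, for the 95 named probes called above 0 in MSX-3 mice, filled where also called in water mice (53) and open where not (42), with a dashed line where both are equal. The probes were chosen by their value on the horizontal axis, and all of them lie above 0 in water mice.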

How the data were processed

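Total RNA of cortex and hippocampus was hybridised in 1 colour (Cy3) to Agilent mouse arrays with 62976 spots, 3671 of them controls, and 56605 distinct probes on the remaining 59305. The intensities deposited by the authors are processed signals of Agilent Feature Extraction (10.7.3.1 by the submitters' processing notes), with background subtracted and without normalization between arrays. All 3022848 values of the series matrix equal them at a relative tolerance of 1e-06. Here the log2 intensity was taken, the 75th percentile over non-control spots of the array subtracted, outlier spots left out and spots of 1 probe averaged. Probes entered the fit if 4 or more arrays of any 1 of the 4 groups read them well above background, and 259 of their values were missing.

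Group means were fitted with limma 3.58.1 (lmFit, eBayes; R 4.3.3, package data.table, version 1.17.8) on the 23 arrays, with the mouse as a random block (duplicateCorrelation, correlation 0.129), 19 residual degrees of freedom and Benjamini-Hochberg adjustment over all kept probes. Both tissues come from the same animals by the labels, and mice are the replicates. Deviations from the group means correlated between cortex and hippocampus of the same animal with a median r of 0.116 over 11 mice (−0.226 to 0.367, 6 over 0.1), against −0.00738 for different mice of a genotype, and 3 mice correlated best with themselves. The number of arrays limits the precision, with a median residual SD of 0.260. Gene names came from RefSeq for 32994 probes and from tables of the study for 59, and 23552 probes had none. Both sources named 449 probes, 439 alike.

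The genes named are the 20 with the largest called contrast above 0, the 5 with the smallest p below 0, where no named gene was called, the members with the smallest p of each of 27 lists, and the study's markers, adenosine genes and transgenes, each by its brightest kept probe. The members, lists and tests were chosen with earlier results of these data known. Columns of unassigned samples did not occur. A few genes are counted in the lists but not reported here by name. The procedure was tested on simulated data. Alternatives were normexp (offset 50, on median intensities), quantile normalization, other filters and percentiles, array weights, an intensity trend, slide, scan day and mouse as fixed terms, all 24 MSX-3 arrays, each mouse left out, and the linear scale. Promoters and their coordinates are from RefSeq, build GRCm38.p6.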

Additional observations from a re-analysis of the deposited data

Results flagged for a closer look

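Of the features tested, 99 probes differed between the tissues in their APP/PS1 minus WT difference by the limma contrast itself. The named genes among them had log2 contrasts of 2.51 for C4b, 2.24 for Ccl4, 2.12 for C4a, 2.0 for Gfap, 1.95 for Clec7a, 1.75 for Lgals3, 1.66 for Ccl6, 1.62 for Pik3cg, 1.41 for Gm31740, 1.41 for Slc14a1, 1.34 for Gpr84, 1.30 for Tyrobp, 1.23 for Tlr2, 1.22 for H2-Oa, 1.20 for Cd9, 1.18 for Gpnmb, 1.18 for Trem2, 1.17 for Siglecf, 1.13 for Ptpn6, 1.13 for Cyba and 0.91 for Cd68.

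Single arrays lay far from the others of their group in 14 of 196 groups of 49 genes (7.14%), where the gap to the nearest array was large against the range of the group; chance gives about 1 in 20. Mouse 282, a WT mouse, was the array apart in the cortex for the synaptic genes Dlg4 (log2 level 2.19), Gria1 (4.24) and Gria2 (4.20) and for Zbtb8b (−1.80), and in the hippocampus for Ada (−1.50). Mouse 283, an APP/PS1 mouse, was apart in the hippocampus for Adora3 (−2.39), Dach1 (−1.16), Dlg4 (1.94) and Nt5e (−2.23), and in the cortex for Ada (−3.16). WT mouse 298 was apart in the hippocampus for Prnp (5.12), and WT mouse 304 for Gm31740 (−1.78). The other two were Slc14a1 in the cortex of APP/PS1 mouse 293 (−0.52) and Slc29a1 in the hippocampus of APP/PS1 mouse 319 (−0.16). Without mouse 282 the count of called contrasts was 146, and without mouse 283 it was 71.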

How the results depend on the processing

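Against 99 called contrasts, the mouse as a fixed block (replicate block) gave 47, normexp 59, no filter on dim probes 62, array weights 168, the slide as a fixed term 18, and all 24 MSX-3 arrays, with the failed one, 5. The fixed block takes out everything shared by the tissues of a mouse, so it gives no value for cortex or hippocampus alone. The other settings gave 69 (no replicate block) to 126 (all readable arrays, 8 groups). For APP/PS1 against WT in the cortex (556), normexp gave 368, the slide 320 and all 24 arrays 119, and in the hippocampus (143) normexp gave 75 and all 24 arrays 14. For the tissues of WT mice (6625), normexp gave 3950, no minimum fold 12873 and all 24 arrays 4182. For the tissues of APP/PS1 mice (6982), normexp gave 3669, only probes above background on all arrays 4350, no minimum fold 13754 and all 24 arrays 3106. With all 24 arrays the median contrast of all probes moved to −0.28, and the cortex difference of Entpd1 turned to −0.071. Leaving out 1 mouse gave 58 to 146 contrasts, 486 to 583 cortex calls, 119 to 154 hippocampus calls, 5970 to 7532 tissue calls in WT and 6303 to 7189 in APP/PS1 mice. The contrast between MSX-3 and water mice had 0 calls in every setting run, with 1643 to 5537 probes at an unadjusted p under 0.05. All 21 called named genes stayed above 0 in every setting, and the number that remained called was 4 with all 24 arrays, 7 with the slide, 15 on the first scan day and 16 with the fixed block. C4b, Cd68 and Gfap remained called in every limma setting. On the linear scale the criterion was another one, an unadjusted permutation p under 0.05 without a fold minimum. It was met by 17 of the 21, among them C4b and Cd68, and not by the brightest Gfap probe. Over all probes of a gene, the median of the reactive astrocyte list was 0.37 and that of the choroid plexus list −0.52. The cause of these shifts was not tested.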

Other observations

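Further called genes, chosen after their values were seen, are given here with what each is known to do. No group of them was tested. Beside Cyba, Ncf1, a further part of the phagocyte NADPH oxidase, had a called contrast above 0 (0.74, limma adjusted p = 0.00257), as did Hvcn1, the proton channel that works with the oxidase (0.94, adjusted p = 0.000239). Of signalling proteins of blood-derived cells, Btk (0.85), Vav1 (0.82), Sh3bp2 (0.89), Dok1 (0.88) and the phosphatase Ptprc (0.86), known as CD45, were called. Of transcription factors, Irf5 (0.91), Irf8 (0.73), Runx1 (0.67), Bcl3 (1.06) and Tgif1 (0.96) were called.

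Other called genes encode endosomal and lysosomal transporters, Slc15a3 (1.09) for peptides and Slc11a1 (0.94) for metal ions, the inhibitory receptors Lag3 (0.98) and Havcr2 (0.78), the nucleotide receptor P2ry6 (0.69) and the thromboxane synthase Tbxas1 (1.0). Most of these lay far from the largest contrasts, between 1.5-fold and a little over 2-fold. Mcm3, a DNA replication helicase subunit, was called by a probe that was not its brightest, at 2.29 in MSX-3 and 0.22 in water mice. This probe was above background on 1 of 5 WT cortex arrays, and the mouse differences of the genotypes overlapped, so that its value rests on dim spots.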
